A study of Mus musculus with 5 samples.

Results

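The resident tracheal epithelium of 2 mice that had recovered from a chemical injury was compared with that of 1 uninjured mouse. Its cells were taken from the sorted GFP-negative fraction of each recipient trachea and from the control trachea. A barcode was kept when at most 10% of its UMIs (unique molecular identifiers, 1 per captured RNA molecule) came from human features and at least 500 mouse genes were detected. It also needed under 20% mitochondrial UMIs, at least 1 UMI of Epcam, an adhesion molecule of epithelial cells, and 0 UMIs of Ptprc, the pan-leukocyte gene CD45. These limits kept 1048 cells of the day 40 recipient, 779 of the day 56 recipient and 598 of the control, which is 2425 of the 3387 barcodes in these 3 libraries and of 6832 in all 5.

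RNA of single cells was captured in droplets (10x Chromium) from adult tracheas of strain 129 X1/S1. The recipients had received 2% polidocanol, a detergent that strips the airway lining, into the trachea, followed by basal cells derived from mouse embryonic stem cells (iBCs), and were studied 40 or 56 days later. The recipients' GFP-negative cells are labelled endogenous, and the GFP-positive fraction is labelled donor-derived. The control had neither injury nor transplant and was sorted only on Calcein Blue, a live-cell dye, which was also used for the recipients. The design text gives all 3 mice the same background and sex. Injury, transplantation, the GFP gate and differences between single mice therefore cannot be told apart, and the recipients differ from each other in time as well as in animal.

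The tracheal lining holds basal cells, which lie on the basement membrane and act as its stem cells, secretory cells, which release mucins and antimicrobial proteins, and multiciliated cells, which move mucus. Rarer types include tuft, neuroendocrine and microfold cells and ionocytes, and hillock cells with squamous keratins. After a loss of surface cells, basal cells divide, express wound keratins and give rise to the other types. Airway epithelium under interferon raises MHC class I and, less commonly, class II, the molecules that show peptides to T cells.

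The kept cells held 15128270, 13013113 and 7305370 UMIs at day 40, at day 56 and in the control, with medians of 12132, 13334 and 10432 UMIs a cell and 5.46%, 5.06% and 6.21% mitochondrial UMIs. The median cell held 7, 7 and 5 Epcam UMIs, of which the limits required 1. EGFP had 0 UMIs in all 3 libraries, against 1932 and 1341 UMIs in the donor-derived cells of the same gate. Libraries shared 0 to 2 barcodes in any pair. The control library had 192 barcodes over the human limit, the lowest of them at 63.2% human UMIs, while its highest kept barcode held 0.538%. Among kept cells 78, 44 and 25 had exactly 1 Epcam UMI, and 16, 13 and 5 cells were left out on exactly 1 Ptprc UMI. T and NK cell markers summed to 8.90 and 7.41 CPM (UMIs of a gene scaled to a common library total, with TMM factors) in the recipients and 0.863 CPM in the control, with 10 of 12 markers at 0 in the control. The fibroblast markers summed to 177, 160 and 90.6 CPM, and 7 of 8 were at 0 in the control, where Dcn carried the whole sum. The part of these cells in the results was not tested.

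Because the control is 1 library, a gene was called by size and not by a test: both recipients had to lie at least 2-fold from the control in the same direction, with 2 CPM added, at 50 CPM and 10 UMIs on the higher side. In the pool of all kept cells 53 of 2442 genes tested met this rule (2.17% called), 47 higher (1.92%) and 6 lower (0.246%) in the recipients. Members of the MHC and interferon lists made up 22 of the 47 and none of the 6. That left 25 higher and 6 lower genes beyond those lists. The lists were fixed and do not hold every interferon-induced gene (AW112010, below, is one they lack). A gene beyond them is therefore not shown to lie outside the interferon response. For each of the 53 called genes the distance from the control to the nearer recipient exceeded the distance between the recipients. Only 10 genes (0.410%) lay 2-fold apart between the recipients. The calls nearest to the limit were Klf4, whose smaller log2 difference was 1.02, and Ptn with 1.02. Just outside it were Abi3bp with 0.97 and Gsta3 with 0.96.

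A companion test with edgeR, in which the spread is that of the 2 recipients and the lone control is assumed to vary like them, reached an adjusted p under 0.05 for 169 of 13533 genes (1.25%). It called 45 of the 53 genes and 23 of the 31 beyond the MHC and interferon lists. When the fit also held the donor-derived libraries, edgeR made 0 calls, with 695 genes at an unadjusted p under 0.05. Nothing in the labels says that these libraries were repeated, so its p-values measure only the spread between 2 mice sampled at different times.

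**Figure D1:**
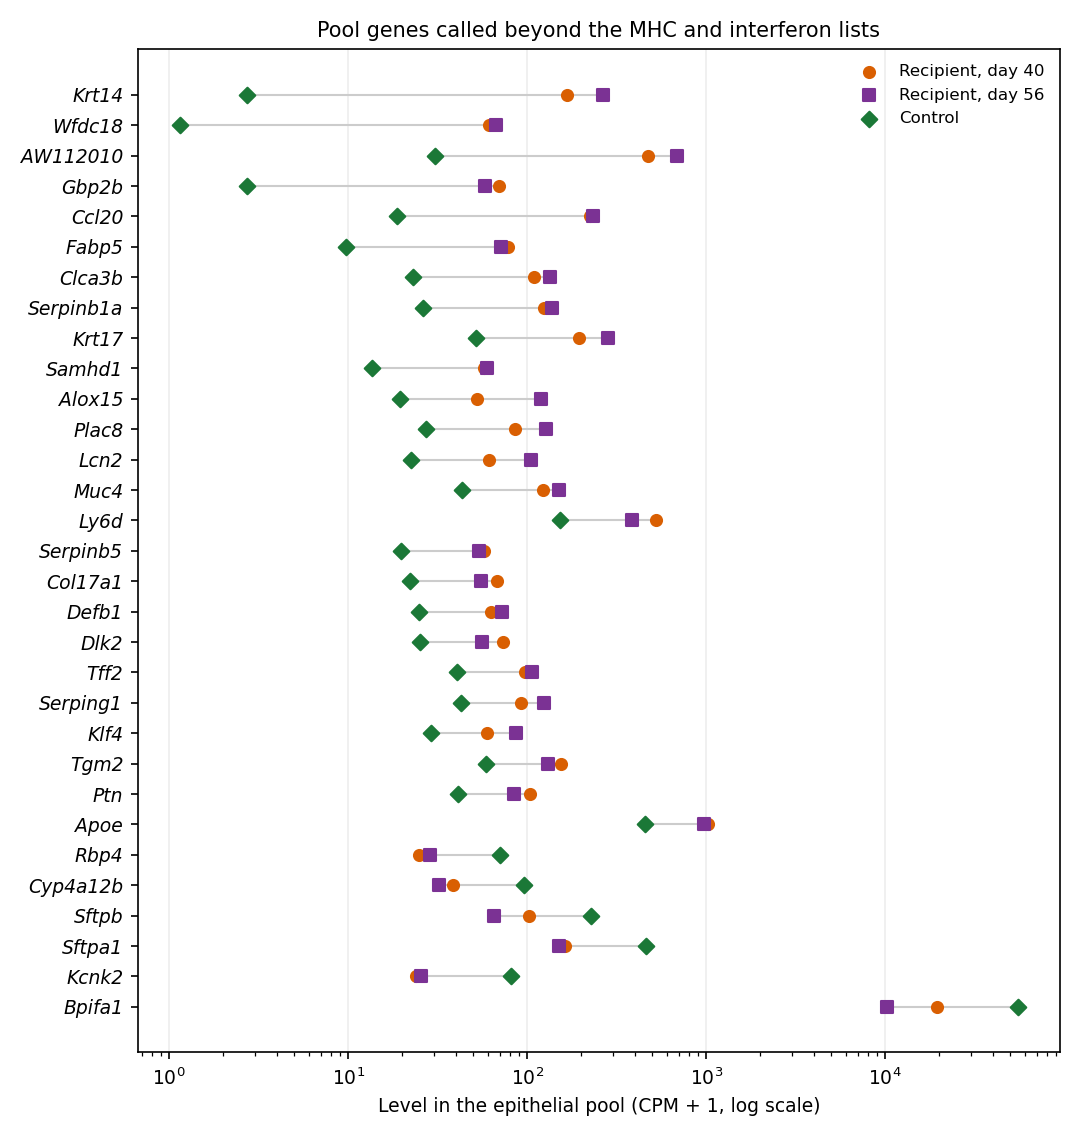
Levels of the 31 genes called in the epithelial pool beyond the MHC and interferon lists, as CPM + 1 on a log axis, for the day 40 recipient (circles), the day 56 recipient (squares) and the control (diamonds), joined by a grey line. In each row both recipients lie on the same side of the control, from Krt14 at 165 and 265 CPM against 1.73 CPM to Bpifa1 at 19373 and 10174 CPM against 54985 CPM.

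Clustering placed cells into 3 main classes large enough for sums in every library: basal-like, secretory-like and ciliated-like. A gene had to be called in each of them separately to count as different across the epithelium, which 15 of 1461 genes did (1.03%), all higher and 0 lower (0.0%). Of these, 14 belonged to the MHC and interferon lists, among them the class II genes Cd74, H2-Aa, H2-Ab1 and H2-Eb1, the class I genes H2-K1, H2-D1, H2-Q7, H2-T23 and B2m, the immunoproteasome subunits Psmb8 and Psmb9, and Iigp1 and Bst2. The gene outside those lists was AW112010. H2-Eb1 was at 0 UMIs in control basal-like cells, and its 244 and 336 CPM in the recipients are at least 33.5-fold and 46.1-fold higher by the limit of 3 counts. H2-D1 showed the smaller contrast of a gene that the control also expressed, with 1450 and 1742 CPM in the pool against 305 CPM. Reads of near-identical class I genes such as H2-Q6 and H2-Q7 can be split between copies, so their single values are uncertain.

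The regions just upstream of 3 called genes are shown as examples chosen from the genes that hold a Y box, a pair called in every class and Plac8, which lies beyond the MHC list. They are 250 bases before the RefSeq gene start (GRCm38.p6), read 5′ to 3′ on the gene's strand, at chr17:34305617-34305866 (plus strand) for H2-Eb1, chr17:35262844-35263093 (plus) for H2-D1 and chr5:100572206-100572455 (minus) for Plac8. Capitals mark the Y box, CTGATTGG or its reverse complement CCAATCAG, a sequence known from MHC class II promoters.
H2-Eb1: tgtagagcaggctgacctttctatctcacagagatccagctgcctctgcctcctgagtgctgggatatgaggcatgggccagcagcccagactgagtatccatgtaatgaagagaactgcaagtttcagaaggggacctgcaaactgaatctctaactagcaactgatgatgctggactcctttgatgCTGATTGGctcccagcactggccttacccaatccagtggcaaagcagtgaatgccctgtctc
H2-D1: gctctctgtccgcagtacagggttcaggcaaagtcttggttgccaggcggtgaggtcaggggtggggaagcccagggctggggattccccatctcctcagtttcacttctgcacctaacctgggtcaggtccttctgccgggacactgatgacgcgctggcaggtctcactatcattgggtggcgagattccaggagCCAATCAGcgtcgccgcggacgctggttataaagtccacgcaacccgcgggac
Plac8: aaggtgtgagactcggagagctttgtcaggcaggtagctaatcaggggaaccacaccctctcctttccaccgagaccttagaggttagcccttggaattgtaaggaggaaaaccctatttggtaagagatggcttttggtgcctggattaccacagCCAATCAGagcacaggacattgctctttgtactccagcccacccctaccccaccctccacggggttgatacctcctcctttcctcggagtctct
The motif began 62, 53 and 94 bases before the gene start. On either strand it was present in 6 of the 11 genes of the all-class group that RefSeq windows covered (Psmb9, H2-Aa, H2-Eb1, H2-D1, H2-Q7 and H2-T23), in 2 of 16 matched genes higher in the pool beyond the lists (Plac8 and Ptn), and in 4.43% of 27025 gene windows. The motif TTCNNNGAA was in 2 of 11, 1 of 16 and 8.13%, and the interferon-stimulated response element (ISRE) pattern in 3 of 11, 1 of 16 and 3.46%. These are letter matches only, and some gene windows hold more than 1 of the motifs.

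AW112010 (ENSMUSG00000075010, GRCm38 chr19:11047612-11055808), a gene known to be induced by interferon that the fixed interferon list did not hold, was named after its values were seen. Secretory-like cells gave 435 and 739 CPM against 24.9 CPM. Ciliated-like cells had 86.5 and 226 CPM against 12.8 CPM, and basal-like cells 297 and 454 CPM against 60.6 CPM. The gene was thus higher in both recipients in every class, and day 56 exceeded day 40 each time. Ptprc-positive cells with no Epcam UMI (136 and 226 cells), which the limits removed, held 649.6 and 1390.0 CPM of it in the recipients (plain CPM), and the part of leukocyte RNA in the epithelial levels was not tested.

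Outside antigen presentation, secretory-like cells of both recipients held more RNA of several secreted defence and mucosal proteins. Of 1663 genes tested 36 were called (2.16%), 33 higher (1.98%) and 3 lower (0.18%), and 16 of the 33 and all 3 lower genes lay beyond the MHC and interferon lists. Lcn2, a siderophore-binding antibacterial protein, stood at 136 and 229 CPM against 29.6 CPM (95% Poisson interval 24.3 to 35.8, counting error only, as for each interval here). Tff2, a trefoil peptide that protects mucus-covered surfaces, was at 249 and 241 CPM against 70.5 CPM. Reg3g, an antibacterial lectin, was at 5557 and 4755 CPM against 2102 CPM. The folds ran from 2.26 for Reg3g at day 56 to 7.74 for Lcn2 at day 56. Of 16 tested antimicrobial genes 3 were called higher (Lcn2, Tgm2, Reg3g) and 1 lower (Bpifa1). In both recipients 9 were higher and 4 lower, against 33.7% and 44.1% of all tested genes. The list's median log2 difference was 0.23 against -0.03 over all tested genes. Among 7 tested mucins and trefoil factors 2 were called higher (Tff2, Muc4) and 0 lower, with a median of 0.25.

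Plac8 in secretory-like cells was at 62.9 and 80.1 CPM against 6.09 CPM (10.3-fold and 13.2-fold). Muc4, a membrane-bound mucin, was at 110.3 and 108 CPM against 39.8 CPM. Alox15, a lipoxygenase that makes lipid mediators, reached 92.6 CPM at day 40 and 250.3 CPM at day 56 against 34.3 CPM, so here the recipients differed from each other about as much as day 40 did from the control. S100g, a calcium-binding protein, also differed between the recipients, at 73.8 and 132 CPM against 16.6 CPM. Samhd1, which hydrolyses deoxynucleotides, was at 55.2 and 54.8 CPM against 12.2 CPM, and Tgm2, a protein cross-linking enzyme, at 55.4 and 55.3 CPM against 17.2 CPM. Serping1, the C1 inhibitor of complement, was at 84.6 and 117 CPM against 32.9 CPM.

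Retnla, a resistin-like secreted protein, was called at 94.4 and 89.5 CPM against 11.6 CPM, but few cells carried it. After every cell was thinned to 5000 UMIs it was seen in 37 of 264, 9 of 221 and 8 of 253 secretory-like cells (20%, 9.95% and 8.70% before thinning). Its pooled level in the day 56 recipient therefore rests on few cells. Lcn2 was seen in 23.5%, 34.8% and 9.09% of thinned secretory-like cells (39.3%, 53.8% and 16.2% before thinning). In ciliated-like cells, which are not known to make Lcn2, the thinned share was 0%, 0.578% and 0%.

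The 3 lower genes in secretory-like cells were all secretory products or membrane proteins. Bpifa1, an abundant airway surface protein also known as SPLUNC, was at 44008 and 20701 CPM against 90093 CPM. Kcnk2, a potassium channel, was at 54.2 and 50.2 CPM against 135 CPM, and it was seen in 17.8%, 21.3% and 39.9% of thinned cells (43.7%, 51.6% and 68.4% before thinning). Rbp4, the retinol carrier, was at 51.0 and 52.0 CPM against 110.4 CPM. Of these, Kcnk2 kept its call when classes were built by clustering on the fixed marker genes alone, and Bpifa1 and Rbp4 did not. With those classes 33 of the 36 secretory calls held, 16 of 19 beyond the lists.

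The class name covers unlike clusters in the groups. Clusters 1 and 10, led by Tff2, Lyz1, S100g and Alox15, held 172 of 270 and 212 of 221 recipient cells and 11 of 253 control cells. Clusters 2 and 9, led by Sftpa1, Cyp4a12b, Sftpb and Rbp4, held 98, 9 and 242. Tff2, S100g, Alox15, Lcn2, Retnla, Kcnk2, Rbp4 and Bpifa1 lead such clusters, so their values describe these classes and were checked with the marker-gene classes, in which all but Rbp4 and Bpifa1 held. The marker-gene secretory class also joined several clusters and was of like size (291, 221 and 273 cells). Whether like cells differ between the groups was therefore not tested. Tff2, Retnla and Bpifa1 are themselves among the marker genes used for that clustering, so the check is not independent for them. Median depth was 21023 and 24679 UMIs a cell in the recipients and 14902 in the control. Macrophage and dendritic cell markers summed to 4444 and 9018 CPM in recipient secretory-like cells and 3207 CPM in the control, led by Lyz2, with 5, 5 and 9 of 12 at 0. Lyz2 was lower in the recipients' leukocytes (879 and 1201 CPM) than in their epithelial pool (2304 and 4970 CPM), with 2143 CPM in the control (plain CPM). The part of leukocyte RNA was not tested.

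**Figure D2:**
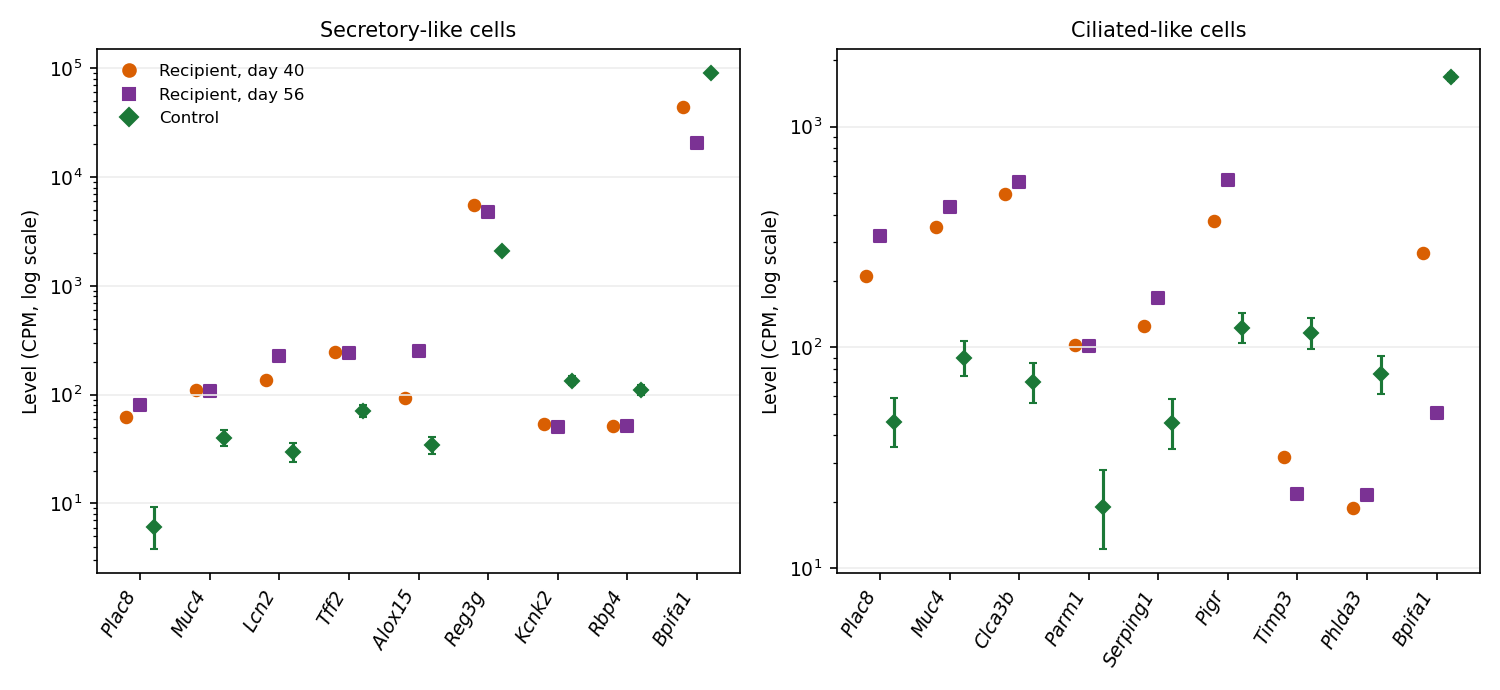
Levels in CPM (log axis) of named genes in secretory-like cells (left) and ciliated-like cells (right), with circles for day 40, squares for day 56 and diamonds for the control, whose bars are 95% Poisson intervals. Muc4 and Plac8 lie above the control in both panels and Bpifa1 lies below it, at 266.9 and 50.3 CPM against 1680 CPM in ciliated-like cells.

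In ciliated-like cells Clca3b, Muc4, Plac8 and Parm1 were among the genes that stood higher in both recipients, and no motile cilium gene was called. Of 3481 genes tested 48 were called (1.38%), 38 higher (1.09%) and 10 lower (0.287%), with 16 higher and all 10 lower genes beyond the MHC and interferon lists. The 64 tested motile cilium genes had 0 calls, their median log2 difference was 0.04 against -0.01 over all tested genes, and Foxj1, the master regulator of ciliogenesis, was at 676 and 662 CPM against 640.1 CPM. Clca3b, of a family of secreted chloride channel regulators, was at 494 and 563 CPM against 69.4 CPM (7.11-fold and 8.11-fold). Muc4 was at 353 and 433 CPM against 89.8 CPM, and Plac8 at 210.2 and 320.3 CPM against 46.0 CPM. Parm1, a mucin-like membrane protein, was at 103 and 101 CPM against 18.9 CPM. Leukocytes of the recipients (Ptprc-positive cells with no Epcam UMI) held Plac8 at 1685 and 555 CPM, against 87.7 and 129 CPM in the epithelial pool and 24.8 CPM in the control (plain CPM), and the part of leukocyte RNA in Plac8 was not tested. The same leukocytes held Muc4 at 0.912 and 0 CPM and Clca3b at 0 and 0.549 CPM.

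Pigr, which carries IgA across the epithelium, was at 372 and 571 CPM against 123 CPM in ciliated-like cells. Sftpd, a collectin that binds microbes, was at 328 and 342 CPM against 106 CPM, and Flt3l, a cytokine for dendritic cell precursors, at 104 and 102 CPM against 36.2 CPM. Serping1 was at 125 and 167 CPM against 45.3 CPM. Agr2, which folds mucins, was only just past the limit at 169.6 and 162 CPM against 77.7 CPM. With the marker-gene classes Sftpd and Agr2 lost their calls, and 35 of 48 held in all, 17 of 26 beyond the lists. The marker-gene ciliated class also took in much secretory RNA, with Scgb1a1, the club cell secretoglobin, no longer lower there.

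Thinned to 5000 UMIs, Muc4 was seen in 68.6% and 79.2% of recipient ciliated-like cells and 33.3% of control ones (82.5%, 92.6% and 42.0% before thinning). Basal-like cells, in which Muc4 is not known as a marker, gave 6.58%, 2.81% and 0%. For Clca3b the thinned shares were 60.8%, 80.3% and 19.6% (72.3%, 90.3% and 26.8% before), with 4.93%, 3.93% and 2.44% in basal-like cells. Plac8 was seen in 44.1%, 54.9% and 15.2% (61.7%, 77.7% and 24.6% before). So the higher sums went with more cells carrying the RNA. Median depth in this class was 12495, 14963 and 8540.5 UMIs a cell.

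The lower genes in ciliated-like cells included Timp3, an inhibitor of matrix metalloproteinases, at 31.8 and 21.8 CPM against 116 CPM. Phlda3, a p53-induced inhibitor of Akt signalling, was at 18.8 and 21.4 CPM against 75.5 CPM. Cd63, a lysosomal tetraspanin, was at 28.7 and 19.9 CPM against 83.0 CPM, Hist1h1e, a linker histone, at 52.8 and 53.3 CPM against 119 CPM, and Tstd1 at 27.2 and 13.5 CPM against 63.4 CPM. With the marker-gene classes Timp3, Phlda3, Hist1h1e and Tstd1 kept the call and Cd63 lost it. Timp3 was seen in 11.3%, 4.05% and 32.6% of thinned ciliated-like cells (18.0%, 14.9% and 47.1% before), and in 50%, 75.3% and 75.6% of basal-like cells. Phlda3 was the only call among 7 tested p53 targets in ciliated-like cells. Free RNA from basal-like cells, where both genes were seen in more cells, was not tested.

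Secretory transcripts in ciliated-like cells were also lower: Bpifa1 at 266.9 and 50.3 CPM against 1680 CPM, Scgb1a1 at 735 and 474 CPM against 1594 CPM and Scgb3a1 at 134 and 175 CPM against 359 CPM. These genes dominate the secretory-like cells of each library, where Scgb1a1 did not differ by the rule, at 245470 and 274110 CPM against 267360 CPM. Bpifa1 was seen in 23.5%, 13.9% and 50% of thinned ciliated-like cells, and how much of this is free RNA was not tested. Most control cells of the class came from cluster 5 (130 of 138, with 46 and 6 recipient cells), led by Meig1 and Pcp4l1, and most recipient cells from clusters 4 and 7 (160 of 206 and 169 of 175). Fibroblast markers summed to 5.36, 78.5 and 0 CPM in the class, with 6, 0 and 8 of 8 at 0. T and NK cell markers summed to 16.5, 20.7 and 1.51 CPM. Their part was not tested.

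Whether these genes followed the antigen presentation genes cell by cell was examined by dividing thinned cells by Cd74, the class II invariant chain. A Cd74 UMI was found in 55.2% of day 40, 83.3% of day 56 and 0.502% of control cells (63.6%, 89.5% and 1.17% before thinning). Leukocytes of the recipients held 7967 and 9904 CPM of Cd74, against 981 and 1314 CPM in the epithelial pool (plain CPM), and the control had 0 Ptprc-positive cells without Epcam against 136 and 226. No class known to lack Cd74 was available in the recipients, and the part of free leukocyte RNA in the division and in the class II levels was not tested. At day 40 Muc4 in ciliated-like cells was 253.6 CPM without and 458 CPM with a Cd74 UMI, both above 93.5 CPM in the control (plain CPM over all UMIs of the cells). Clca3b was at 337 and 666 CPM against 72.3 CPM, and at day 56 at 524 and 562 CPM. Plac8 was at 162 and 259.7 CPM at day 40 and 203 and 349.97 CPM at day 56 against 47.9 CPM. Both kinds of recipient cell therefore lay above the control for these 3 genes.

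Serping1 in ciliated-like cells without a Cd74 UMI was at 62.5 CPM at day 40 and 63.1 CPM at day 56, near the control's 47.2 CPM, and at 198 CPM in cells with one in each recipient. AW112010 was at 27.2 and 157 CPM at day 40 and 94.0 and 265 CPM at day 56, against 13.4 CPM. Both were thus higher in cells with a Cd74 UMI in each recipient, while the lower genes showed no common direction. Timp3 was below the control's 121 CPM in each group, at 43.5 and 16.02 CPM at day 40 and 10.3 and 25.2 CPM at day 56. Phlda3 likewise stood at 25.2 and 10.1 CPM, then 17.6 and 22.2 CPM, against 78.6 CPM.

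In secretory-like cells Lcn2 did not follow Cd74, at 148 CPM without and 125 CPM with a UMI at day 40 and 265 and 229 CPM at day 56, against 25.9 CPM. S100g did, at 16.04 and 121 CPM at day 40 and 12.7 and 154 CPM at day 56, against 15.8 CPM. Kcnk2 was at 86.1 and 33.1 CPM, then 62.1 and 49.6 CPM, against 128 CPM. Bpifa1 was lower than the control's 85917 CPM in each group, at 40330 and 49572 CPM at day 40 and 20971 and 21164 CPM at day 56. Cells in which no Cd74 UMI was drawn still held 20.7 CPM of Cd74 at day 40 and 110.1 CPM at day 56, so the division is by amount and not by presence. The day 56 group without a UMI had 32 secretory-like and 52 ciliated-like cells.

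**Figure D3:**
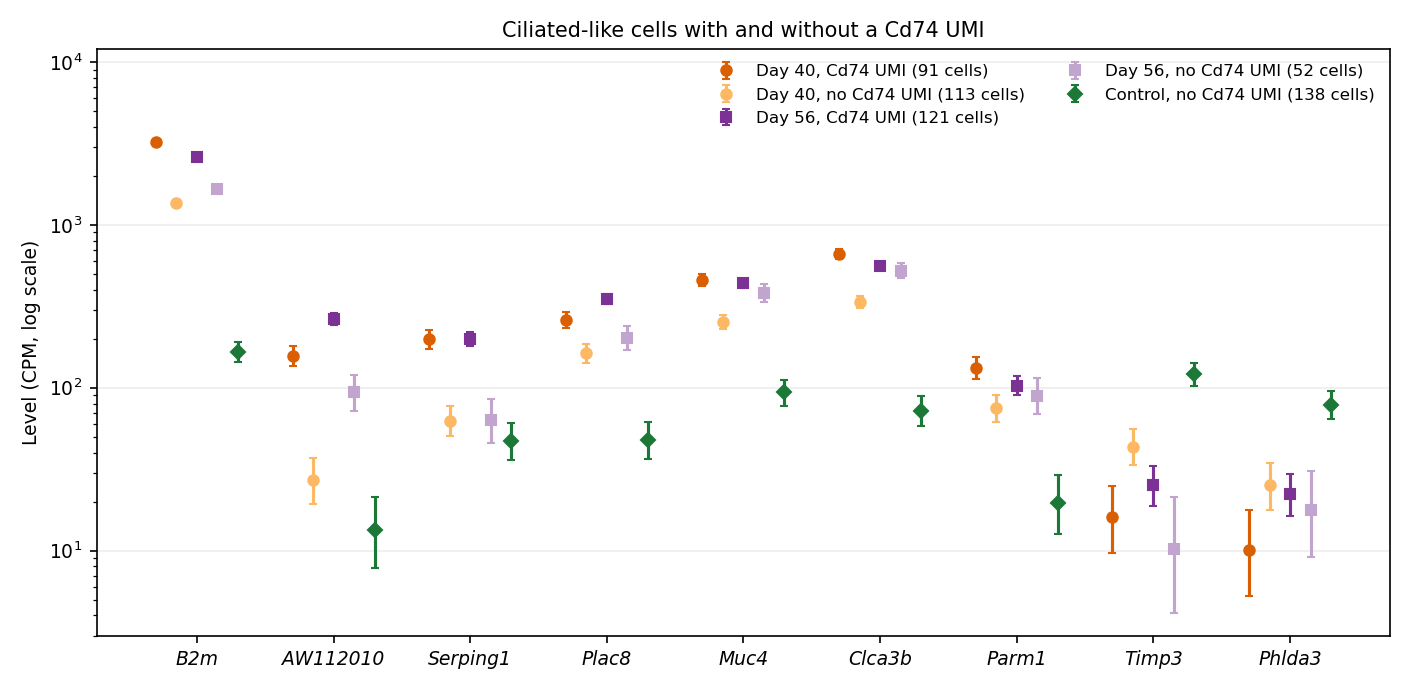
Levels in CPM (log axis) of 9 genes in ciliated-like cells divided by a Cd74 UMI after thinning to 5000 UMIs, with cells that have one in dark and cells that have none in light colours (circles day 40, squares day 56), beside the control (diamonds). Bars are 95% Poisson intervals for counting error only. Muc4, Clca3b and Plac8 exceed the control in all 4 recipient groups, while Serping1 without a Cd74 UMI, at 62.5 and 63.1 CPM, lies near the control's 47.2 CPM.

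The keratin genes Krt14 and Krt17 were higher in the pool. Krt14, a basal keratin that broadens after airway injury (ENSMUSG00000045545, GRCm38 chr11:100203162-100207548), was at 165 and 265 CPM against 1.73 CPM, the latter from 12 UMIs. Krt17, which marks injured and squamous epithelium (chr11:100256217-100261029), was at 194 and 282 CPM against 51.0 CPM. Krt14 was seen in 14.6% and 20.6% of thinned recipient cells and 0.669% of control cells (18.4%, 24.8% and 1.003% before thinning). In ciliated-like cells, which should lack it, the thinned share was 0% in each library. Of 12 tested squamous and wound keratin genes these 2 were called, and the list's median was 0.19 against -0.01 over all genes. At equal class weights 0 of 10 were called. These 10 reached a log2 difference of at most 0.58 and did not include Krt14, which fell below the CPM minimum. The change of Krt14 was therefore not examined there. In the donor-derived cells of the same gate Krt14 was at 1304 and 903 CPM at day 40 and day 56.

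In the recipients cluster 3 held more of both keratins' UMIs than any other cluster. It was called hillock-like and led by Krt14, Nrg1, Krt17 and Krt6a, with 93, 106 and 18 cells. It held 51.0% and 63.6% of Krt14 and 42.6% and 63.7% of Krt17 UMIs in the recipients. The unnamed clusters 12 and 15, with 0 control cells, held 13.5% and 14.7% of Krt14 UMIs at day 40. Cluster 15 held 16.1% of Krt14 UMIs at day 56. At day 40 cluster 12 held 19.2% and basal-like cluster 0 held 18.2% of Krt17 UMIs. Without the hillock-like cells Krt14 was still at 86.4 and 108 CPM against 1.77 CPM and Krt17 at 119 and 114 CPM against 41.3 CPM. Serpinb5, a serpin of squamous epithelium, was at 56.1 and 52.4 CPM against 18.8 CPM in the pool and at 43.5 and 32.8 against 15.05 CPM without them, where it still met the 2-fold limit but fell below 50 CPM. Col17a1, a hemidesmosome collagen of basal cells, was at 66.7 and 53.9 CPM against 21.1 CPM, and Dlk2, another basal gene, at 72.4 and 54.9 CPM against 24.0 CPM. Without hillock-like cells Dlk2 also still met the 2-fold limit (63.9 and 46.1 against 18.9 CPM) and was lost only on the CPM minimum, while Col17a1 missed the fold at day 56 (54.01 and 32.1 against 17.0 CPM). In all, 45 of the 53 pool calls held without them, and 4 of the 8 lost ones still met the 2-fold limit.

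Many pool calls were not made again within a class. Of the 25 higher pool genes beyond the lists 12 were called in no class, 9 in 1, 3 in 2 and 1 in all 3, and 5 held when the classes were given equal weight. Equal weighting averaged the CPM of the 3 classes and kept the 50 CPM minimum. A gene expressed in 1 class could therefore miss the call on level alone. Hillock-like, microfold-like and unnamed cells were not in the average. Of the 12, Fabp5, Gbp2b and Wfdc18 were too low to be tested in any class and the other 9 were tested in 1 class each. Apoe, Defb1 and Ptn, which the naming rule did not select, are examples: Apoe was at 1019 and 975 CPM against 452 CPM in the pool but at 2989 and 3552 CPM against 3483 CPM in basal-like cells. Of the 22 higher genes on the MHC and interferon lists all held at equal weights. With equal weights 33 of 2675 genes were called (1.23%), 31 higher (1.16%) and 2 lower (0.0748%), of which 8 and 2 lay beyond the lists. The genes named among these were Muc4, Clca3b, Plac8, Tff2, Reg3g, Pigr and AW112010 higher, and Kcnk2 and Sftpa1 lower, and with marker-gene classes Pigr dropped out.

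Another group of pool calls came from very few cells. A microfold-like cluster, named from Spib, Ccl9 and Ccl20, held 9, 6 and 0 cells. A count of 0 of 598 control cells allows a share of up to 0.502%. These cells held 84.2% and 87.9% of the recipients' UMIs of Wfdc18, a protease inhibitor-like secreted protein, and 71.8% and 86.9% of those of Fabp5, a fatty acid carrier. Wfdc18 was at 60.1 and 66.1 CPM (939 and 874 UMIs) against 1 UMI in the control, and Fabp5 at 77.4 and 69.9 CPM against 8.77 CPM. Without the microfold-like cells Wfdc18 was at 9.56 and 8.09 CPM against 0.144 CPM, which met the 2-fold limit but not the minimum of 50 CPM. Fabp5 was then at 22.04 and 9.24 CPM against 8.76 CPM and met neither.

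Ccl20, a chemokine for CCR6-bearing lymphocytes and dendritic cells, was less bound to these cells, though it is among the markers that named them. The microfold-like cells held 40.1% and 58.8% of the recipients' Ccl20 UMIs. Ccl20 was at 222 and 233 CPM against 17.7 CPM in the pool and kept its call without the microfold-like cells, at 134 and 96.8 CPM. In basal-like cells, the class in which it was tested, it was not called (mean log2 difference 0.63). Serpinb1a, an inhibitor of neutrophil proteases, was at 122 and 136 CPM against 25.2 CPM and kept its call too, at 54.5 and 54.4 CPM. Of its UMIs in the recipients 55.8% and 60.3% were in the microfold-like cells. In all, 51 of 53 pool calls held without them. Clustering on marker genes put 30, 26 and 5 cells into a microfold-like cluster, so the count of such cells depends on the clustering.

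Basal-like cells gave the least certain comparison, since only 41 control cells entered it. Of 2780 genes tested 50 were called (1.8%), 46 higher (1.65%) and 4 lower (0.144%), and 22 and 4 lay beyond the lists. Without scaling beyond the library total 33 genes were higher and 15 lower. With marker-gene classes, which put 129 control cells here, 24 of the 50 calls and 4 of the 26 beyond the lists held. These 4 were Krt14, AW112010, Cd36 and Mme, of which Krt14 is itself one of the marker genes used for that clustering. Krt14 was at 89.8 and 157 CPM against 24.3 CPM (10 UMIs), Cd36, a fatty acid receptor, at 44.9 and 92.6 CPM against 196 CPM, and Mme, a membrane peptidase, at 28.8 and 29.4 CPM against 63.1 CPM. Other named calls, such as Scgb1a1, Lyz2, Reg3g, Ltf and Pigr, did not hold there. Lyz2 is on the macrophage and dendritic marker list as well as the antimicrobial list, and the others are secretory genes. The 11 tested basal markers had a median of 0.05 against 0.07 over all genes, with Krt14 the only call among them. Clusters 0, 6 and 11 made up the class. The unnamed cluster 8, with 107 control cells, was not part of it.

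The lower pool genes included surfactant proteins and an enzyme of fatty acid oxidation. Sftpa1, surfactant protein A, was at 161 and 149 CPM against 460.4 CPM and Sftpb, surfactant protein B, at 101 and 64.0 CPM against 225 CPM. Cyp4a12b, a fatty acid hydroxylase of the cytochrome P450 family, was at 37.6 and 31.2 CPM against 94.9 CPM. It was the only call among 26 tested genes of xenobiotic metabolism, and 25 of the 26 were lower in both recipients, as were 40.1% of all tested pool genes, with a list median of -0.48. In secretory-like cells none of 25 was called, 18 were lower in both (44.1% of all tested genes) and the median was -0.41 against -0.03 over all genes. The median was nearer to 0 in basal-like (-0.04), in ciliated-like cells (-0.11) and at equal class weights (-0.20). The 13 tested antioxidant genes had a median of -0.26 in the pool, with 0 called and 10 lower in both. Sftpb, tested in 2 classes, and Cyp4a12b, tested in 1, were called in no class and not at equal weights, while Sftpa1 was called at equal weights. Secretory-like cells were a smaller share of the recipients' cells (25.8% and 28.4% against 42.3%), and the part of that share in the pool levels was not tested.

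Several pathway lists held few tested genes, so that the 2.17% called over the pool comes to less than 1 gene in each of the following. In the pool 0 of 3 tested p53 targets, 0 of 5 Hippo and YAP targets, 0 of 3 TGF-beta and BMP genes, 0 of 4 Wnt genes, 0 of 15 heat shock genes and 0 of 10 claudin and junction genes were called. The Notch list had 1 of 3 (Dlk2), matrix and adhesion 1 of 10 (Col17a1) and immediate early genes 1 of 12 (Klf4). The antimicrobial list had 3 higher (Wfdc18, Lcn2, Tgm2) and 2 lower (Bpifa1, Sftpa1) of 15, with a median of 0.10. Among mucins and trefoil factors Muc4 and Tff2 were called of 7 tested. MHC class I had 13 of 16 called with a median of 2.74, class II 4 of 4 with a median of 7.05 and the interferon list 8 of 18. The circadian clock genes were lower in both recipients for 5 of 5 tested in the pool (median -0.43, 0 called). Over all tested pool genes that share was 40.1%. They were also lower in both for 6 of 7 in basal-like and 4 of 4 in secretory-like cells (32.7% and 44.1% of all tested genes). In ciliated-like cells 6 of 7 were higher in both, against 40.0% of all tested genes. Their median there was 0.10 against -0.01 over all genes, with 0 called. Collection times were not given in the sources used here.

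The mix of cells was compared under 5 clusterings, since the groups also differ in the genes that define clusters. The one without the Epcam limit lifted the Ptprc limit too. Its shares are of the cells in epithelial clusters (1129, 871 and 614 cells). Secretory-like cells made up 25.8% and 28.4% of the recipients' and 42.3% of the control's cells (exact Clopper-Pearson intervals 23.1 to 28.5, 25.2 to 31.7 and 38.3 to 46.4), and stayed below the control under each clustering. Ciliated-like cells were at 19.7%, 22.5% and 23.1%. Basal-like cells were at 29.9%, 22.98% and 6.86%, but at 26.8%, 24.4% and 21.6% when clustered on marker genes. Without the Epcam and Ptprc limits they were at 33.1%, 24.9% and 28.2%, where the day 56 share lay below the control's. The size of the basal difference therefore depended on the clustering and on the cells included. Hillock-like cells were at 8.87%, 13.6% and 3.01% in the main clustering (93, 106 and 18 cells). They numbered 46, 70 and 0 at resolution 0.5, 34, 54 and 0 at resolution 2.0 and 56, 69 and 0 without the Epcam limit. At resolution 2.0 an unnamed cluster led by Krt13, whose best-scoring class was hillock, held a further 44, 0 and 6 cells. On marker genes hillock-like cells numbered 71, 35 and 6, so the order of the recipients depended on the clustering and the naming. Clusters without a name held 10.1%, 8.73% and 20.9%, among them cluster 8 (26, 5 and 107 cells), led by Stap1, Coch and Ascl3. In the control this cluster held 20.4% of Col17a1 and 21.4% of Krt17 UMIs, and also 11.7% of Cyp4a12b and 10.1% of Sftpb UMIs. The control's basal-like share of 6.86% leaves its cells out, and whether some of them are basal was not tested. The GFP gate took donor-derived cells out of the recipients' totals but not the control's, and 2 libraries against 1 allow no test of a share.

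**Figure D4:**
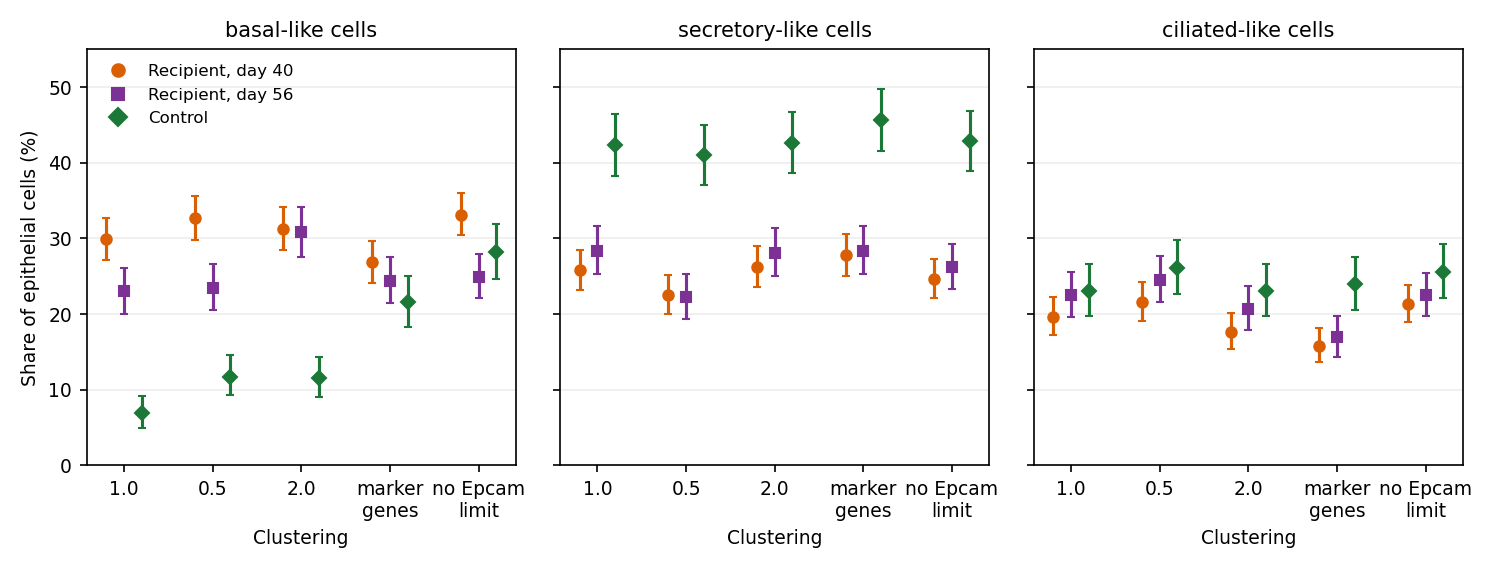
Share of cells (%) in each class under 5 clusterings (Leiden resolution 1.0, 0.5 and 2.0, clustering on marker genes, and no Epcam limit), with circles for day 40, squares for day 56, diamonds for the control and bars for 95% Clopper-Pearson intervals. Shares are of kept cells, except that the last clustering has no Ptprc limit either and its shares are of cells in epithelial clusters. The control's secretory-like share lies above both recipients throughout, while its basal-like share moves from 6.86% to 28.2% with the clustering and the cells included.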

How the data were processed

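The authors deposited a matrix of raw UMI counts for each library, in whole numbers per the file headers and values, with human, mouse, EGFP and mCherry features. Builds GRCh38 and GRCm38 and the tools Seurat, STARsolo and Cell Ranger are listed, per the submitters' processing notes. Their roles and earlier filters are not given in the sources used here. The genes and lists described were chosen with earlier results of these data known.

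Kept cells were scaled to 10000 UMIs and clustered on 2000 variable genes (30 components, 15 neighbours, Leiden resolution 1.0, seed 1) in scanpy 1.11.5, and named "-like" from marker lists. Counts were summed per library and class and scaled by TMM in edgeR 4.0.16 (R 4.3.3). The edgeR companion used filterByExpr and robust quasi-likelihood F-tests with Benjamini-Hochberg adjustment, and DESeq2 1.42.0 was an alternative. Scrublet called 37 of 3167 cells as doublets (1.17%), which were kept and left out as an alternative.

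Per comparison and direction, the 8 called genes with the largest change in the recipient nearer to the control were named, plus up to 4 called members of each list and up to 10 genes per direction called in all 3 classes. Genes of the MHC and interferon lists, immune and stromal markers and unnamed gene models were not named by size. The other genes called in all 3 classes, AW112010, Foxj1, Apoe, Defb1, Ptn, Klf4, Abi3bp, Gsta3 and Hspa1b were named after their values were seen. Gene coordinates are from GENCODE vM21 (GRCm38). Simulated data with known changes were used to check the scripts. The donor-derived libraries entered only where named. Some results are not reported here.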

Additional observations from a re-analysis of the deposited data

Results flagged for a closer look

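Scgb1a1, the club cell secretoglobin, moved in opposite directions in 2 classes: its log2 difference from the control was 1.69 at day 40 and 2.16 at day 56 in basal-like cells and -1.11 and -1.75 in ciliated-like cells. The difference between classes was not tested, and the basal direction turned under other clusterings. In secretory-like cells Hspa1b, an inducible heat shock gene, moved in opposite directions in the recipients, with log2 differences of -1.10 at day 40 and 1.36 at day 56, which was not tested either and rests on 1 library each.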

How the results depend on the processing

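Counts of called genes are given in the order pool, basal-like, secretory-like, ciliated-like, equal weights and all 3 classes. The main counts of 53, 50, 36, 48, 33 and 15 became 98, 168, 68, 98, 62 and 28 at a minimum of 20 CPM and 228, 519, 181, 247, 154 and 45 with no CPM minimum. Leaving out 1 recipient gave 68 to 92, 75 to 117, 40 to 70, 61 to 93, 36 to 58 and 16 to 21, with the higher count each time from day 56 alone. Basal-like calls were 84 without mitochondrial and ribosomal protein transcripts and 32 at Leiden resolution 0.5. The recipients' mean share minus the control's, in percentage points, was 19.6 for basal-like cells (4.03 on marker genes, 0.844 without the Epcam and Ptprc limits, 16.1 to 23.01 leaving out a recipient). For secretory-like cells it was -15.2 (-18.6 at resolution 0.5, -17.6 on marker genes, -17.4 without the Epcam and Ptprc limits, -16.5 to -13.9 leaving out a recipient). For ciliated-like cells it was -2.02 (-5.25 under 10% mitochondrial UMIs, -7.52 on marker genes, -3.42 to -0.612 leaving out a recipient). The 169 edgeR calls became 962 with no filter on low counts and 258 without scaling. With all 5 libraries edgeR gave 0 calls (695 genes at an unadjusted p under 0.05), and in that fit 0 without the day 40 or the day 56 endogenous library (316 and 253), while DESeq2 on the 3 libraries gave 188. Scgb1a1 in basal-like cells turned to -1.65 at resolution 0.5 and -1.86 on marker genes, where Lyz2 in basal-like cells was -1.63, Reg3g in basal-like cells -0.34 and Scgb1a1 in ciliated-like cells 0.0778. The cause of these shifts was not tested. Of 2246 values of named genes under alternatives 2166 kept their call and 5 turned. Several alternatives only relax the rule: a lower or no CPM minimum, 0.5 CPM added, and leaving out 1 recipient. A call could not be lost under these, so the count of kept calls overstates how stable the calls are. Plain CPM moved the median gene by 0.11 and 0.09 in the pool, -0.17 and -0.19 in basal-like, 0.12 and 0.11 in secretory-like and -0.09 and -0.08 in ciliated-like cells (log2). Leaving out unnamed, microfold-like or hillock-like clusters gave 60, 51 and 46 pool calls and joining basal-like with hillock-like cells 49, alternatives chosen after seeing the data. No paired analysis was possible because the control is 1 library of a separate mouse that shares no recipient with the others. Depth limits the basal-like comparison most, with 379177 UMIs in its control cells.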
